A study of Bos taurus with 12 samples.

Results

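The low-density lipoprotein (LDL) receptor family was followed in bovine intramuscular preadipocytes over 9 days of adipogenic differentiation. The 8 genes VLDLR, LRP8, LRP1, LRPAP1, LRP5, LRP6, LRP4 and SORL1 were taken by name from the deposited mRNA table, in which each had 1 row of its own among 33714 rows. Of these rows, 15401 had a mean of at least 0.1 FPKM (fragments per kilobase of transcript, scaled to the mapped fragments of the library) over the 12 libraries and could be tested. They included 7 of the 8 genes, and SORL1 lay below this limit.

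Receptors of this family are membrane proteins that bind ligands outside the cell through cysteine-rich repeats, carry them into endosomes and return to the surface. VLDLR takes up triglyceride-rich lipoproteins next to lipoprotein lipase and is known in adipose tissue for the delivery of fatty acids, and LRP1 is a large scavenger receptor with many ligands. LRP5 and LRP6 are co-receptors of Frizzled proteins for Wnt ligands, a pathway known to hold preadipocytes in the undifferentiated state.

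Newborn Qinchuan cattle were the source of the cells, which were taken from longissimus dorsi muscle and grown in DMEM-F12 with 15% fetal bovine serum. At 90% confluence they received dexamethasone, 0.5 mM IBMX (an inhibitor of phosphodiesterases) and insulin for 48 h, and afterwards insulin alone. The labels give 5 μg/ml insulin, and the labels and the study's methods differ on the doses of dexamethasone and insulin. RNA was taken at 0, 3, 6 and 9 d, with 3 libraries per day. The 0 d libraries were from cells before induction, and every later day combines the time in culture with the induction, so that these cannot be told apart. The study calls the 3 libraries of a day biological replicates and describes the cells of the different days as the same batch. It does not say whether the replicates came from different animals, so the p-values measure only the spread between these libraries.

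Markers were read first to check the label of the cells. Fibroblast and preadipocyte markers had the highest sums, with 118680, 115492 and 122840 FPKM at 0 d, 166463, 172356 and 174266 FPKM at 3 d, 134014, 129805 and 129488 FPKM at 6 d and 221684, 210938 and 224182 FPKM at 9 d. COL3A1 made up most of each sum (means of 105843, 126606, 96303 and 170827 FPKM). Of 6 of these genes tested, 4 rose and 2 fell at 3 d, 2 rose and 2 fell at 6 d, and 5 rose and 1 fell at 9 d, and 1 more was below the limit. The 12 adipocyte markers with a row of their own summed to 8.32, 8.52 and 9.03 FPKM at 0 d, to 125, 120 and 127 FPKM at 3 d, to 49.9, 51.7 and 49.0 FPKM at 6 d and to 53.8, 44.7 and 54.5 FPKM at 9 d. FABP4, a fatty acid carrier, had means of 3.30, 91.1, 26.4 and 9.07 FPKM on the 4 days and was not the most abundant of them at 9 d. Of 11 of these genes tested, 9 rose and 1 fell at 3 d, so that the sum does not speak for each of them. ADIPOQ, the gene of adiponectin, averaged 0.0233 FPKM at 0 d and 0.603 FPKM at 9 d. Skeletal muscle markers were present on every day, which the label does not cover. The 7 of them with a row summed to 824, 864 and 938 FPKM at 0 d, 269, 297 and 292 FPKM at 3 d, 398, 378 and 421 FPKM at 6 d and 326, 292 and 323 FPKM at 9 d. DES was the most abundant, and MYOD1, which specifies myoblasts, averaged 268 FPKM at 0 d and 54.5 FPKM at 9 d. In the comparisons with 0 d, 6 of these 7 genes fell at 3 d, and all 7 fell at 6 d and at 9 d (limma, adjusted p under 0.05). Pericyte and smooth muscle markers summed to 1881, 1907 and 2022 FPKM at 0 d and to 111, 117 and 106 FPKM at 3 d, then to 1639, 1765 and 1747 FPKM at 6 d and 729, 668 and 752 FPKM at 9 d. This sum mostly follows ACTA2 (1697, 26.8, 1583 and 598 FPKM), which was not the most abundant of the list at 3 d, and of 5 tested 3 fell and 1 rose at 3 d. Of the 6 genes of each of the remaining lists, 4 endothelial, 3 blood and 5 neural markers had a mean under 0.1 FPKM, and PTPRC and HBB (blood) were listed at 0 in all 12 libraries. Of the 3 blood markers tested, 2 rose at 3 d, 1 at 6 d and 1 at 9 d, and the list summed to 1.34, 1.16 and 1.10 FPKM at 0 d and 3.36, 3.69 and 3.67 FPKM at 3 d. Of the 2 endothelial markers tested, 1 rose at 3 d and 1 fell at 9 d, and the neural marker tested fell on each day. The libraries are bulk RNA, in which fewer cells of a type and less RNA per cell cannot be told apart. Whether the markers of other cells have a part in the changes of the receptors was not tested.

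The 8 genes spanned a wide range of levels, given as deposited, and the level of LRP1 carries a limit described with that gene below. At 0 d the order by mean FPKM was LRP1 (42272), VLDLR (276), LRP6 (6.39), LRP8 (5.17), LRP5 (5.08), LRPAP1 (5.06), LRP4 (2.57) and SORL1 (0.0267). The libraries of LRP6, LRP8, LRP5 and LRPAP1 overlapped from neighbour to neighbour, and the other neighbours were separated. LRP1 and VLDLR led the order on all 4 days, and LRP4 and SORL1 kept the last places. At 3 d LRP6 (20.4 FPKM) stood apart from LRP8 (9.82), whose libraries overlapped those of LRPAP1 (5.98), and LRP5 (3.84) overlapped LRP4 (3.18). At 6 d LRP6 (7.76) overlapped LRPAP1 (6.87), and LRP8 (5.71) overlapped LRP5 (4.67). At 9 d LRPAP1 (7.79), LRP6 (6.57), LRP5 (5.03) and LRP8 (3.59) again overlapped from neighbour to neighbour.

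**Figure D1:**
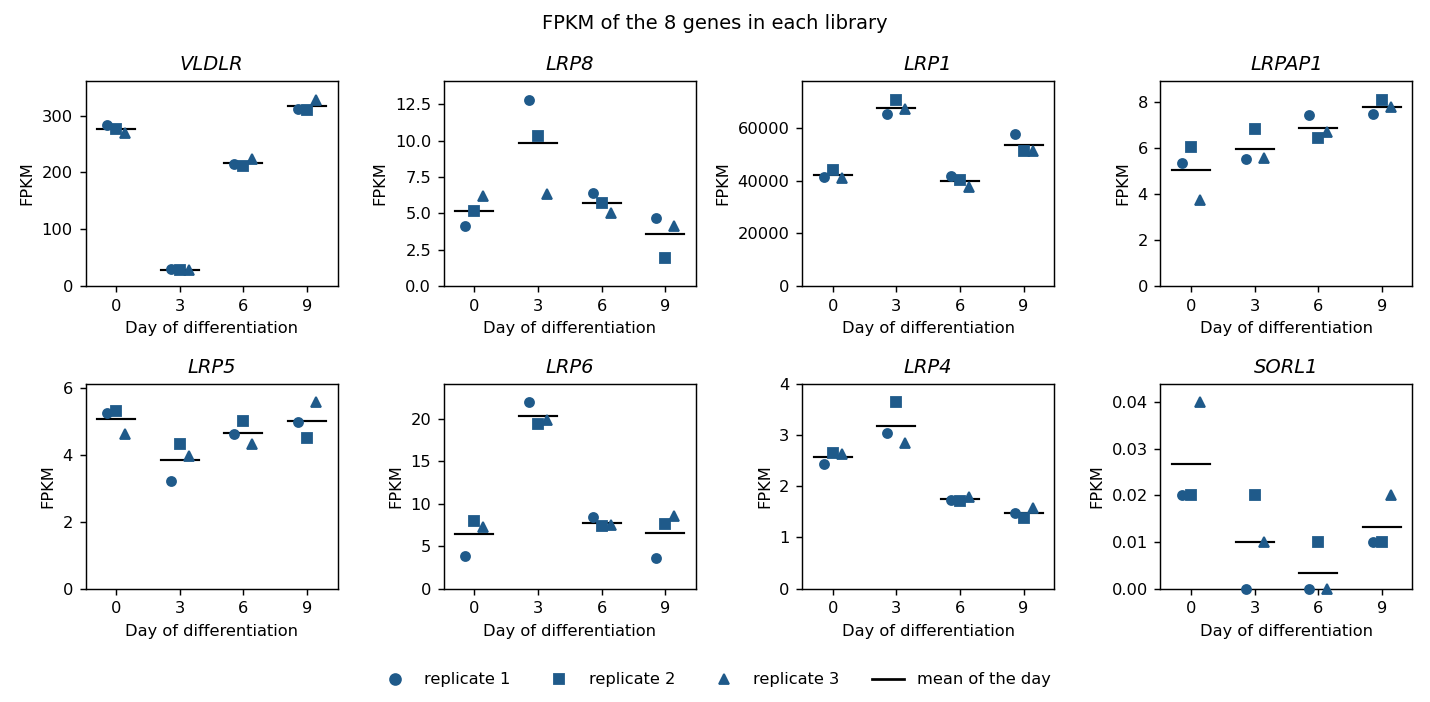
FPKM of each of the 8 genes (y axis, from 0, a scale for each gene) by day of differentiation (x axis), with 1 point per library, a symbol per replicate number and a line at the mean of the 3 libraries. VLDLR drops to 28.4 FPKM at 3 d, while LRP6 and LRP1 are highest on that day.

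Each pair of days was compared by limma on log2(FPKM + 0.1), with p-values adjusted over all 15401 rows. A gene is said to have passed at an adjusted p under 0.05, and to have passed with a large change when its log2 fold change was also over 1 in size. Log2 fold changes are on the log2(FPKM + 0.1) scale, which understates the change of genes with low values, and values written as n-fold are ratios of mean FPKM. The comparisons with 0 d share the same 3 libraries. At 3 d vs. 0 d, 3 of the 7 genes were higher (LRP1, LRP4 and LRP6) and 2 were lower (VLDLR and LRP5), where 21.7% of all rows passed as higher and 30.5% as lower. The changes of VLDLR and LRP6 were large, as were those of 23.3% of all rows. The count of 5 genes became 3 without 0 d replicate 1 and 3 without 0 d replicate 2. LRP5 no longer passed without 3 d replicate 1 (-0.29), which left 1 gene lower, and LRP8 joined the large changes without 3 d replicate 3 (1.16).

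At 6 d the counts against 0 d were smaller. None of the 7 passed as higher against 0 d, with 1 at an unadjusted limma p under 0.05, and 2 passed as lower (VLDLR and LRP4), where 10.0% and 24.8% of all rows passed as higher and lower. LRPAP1 was added as higher without 0 d replicate 2 (0.60). Large changes were counted in 0 of the 7, also at unadjusted p, and in 11.4% of all rows. At 9 d vs. 0 d, 3 genes were higher (LRP1, VLDLR and LRPAP1) and 1 was lower (LRP4), beside 9.69% and 27.2% of all rows. Large changes were again found in 0 of the 7, at adjusted or unadjusted p, and in 10.9% of all rows. The median of all rows was -0.15 at 6 d vs. 0 d and -0.19 at 9 d vs. 0 d, and with FPKM rescaled by the median ratio between libraries it was 0.01 and 0.00. The rows that passed at 6 d, 1541 higher and 3819 lower as deposited, became 2415 and 2524 with rescaling, and at 9 d 1493 and 4182 became 2463 and 2333.

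Between the induced days, at 6 d vs. 3 d, VLDLR was higher, and LRP1, LRP4 and LRP6 were lower, so that 1 and 3 of 7 passed beside 22.4% and 27.1% of all rows. The changes of VLDLR and LRP6 were large, as were those of 19.1% of all rows. A further gene was higher without 3 d replicate 2 (LRP5, 0.37), and a further change was large without 3 d replicate 3 (LRP8, -1.01). From 6 d to 9 d, LRP1 and VLDLR were higher and 0 of 7 passed as lower (1 at an unadjusted limma p under 0.05), beside 10.0% and 10.7% of all rows, and a large change was seen in 0 of 7 and in 4.43% of all rows. At 9 d vs. 3 d, 2 genes were higher (VLDLR and LRP5) and 4 were lower (LRP1, LRP4, LRP6 and LRP8), beside 22.2% and 29.1% of all rows. Of these, 4 changes were large (VLDLR, LRP4, LRP6 and LRP8), as in 20.5% of all rows. LRP5 did not pass without 3 d replicate 1 (0.27), 9 d replicate 1 (0.39) or 9 d replicate 3 (0.31), which left 1 gene higher. The median absolute log2 fold change of the 7 genes was 0.68 at 3 d, 0.34 at 6 d and 0.34 at 9 d against 0 d, beside 0.52, 0.34 and 0.36 over all rows. It was 0.76 at 6 d vs. 3 d, 0.33 at 9 d vs. 6 d and 1.04 at 9 d vs. 3 d, beside 0.48, 0.25 and 0.50 over all rows.

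**Figure D2:**
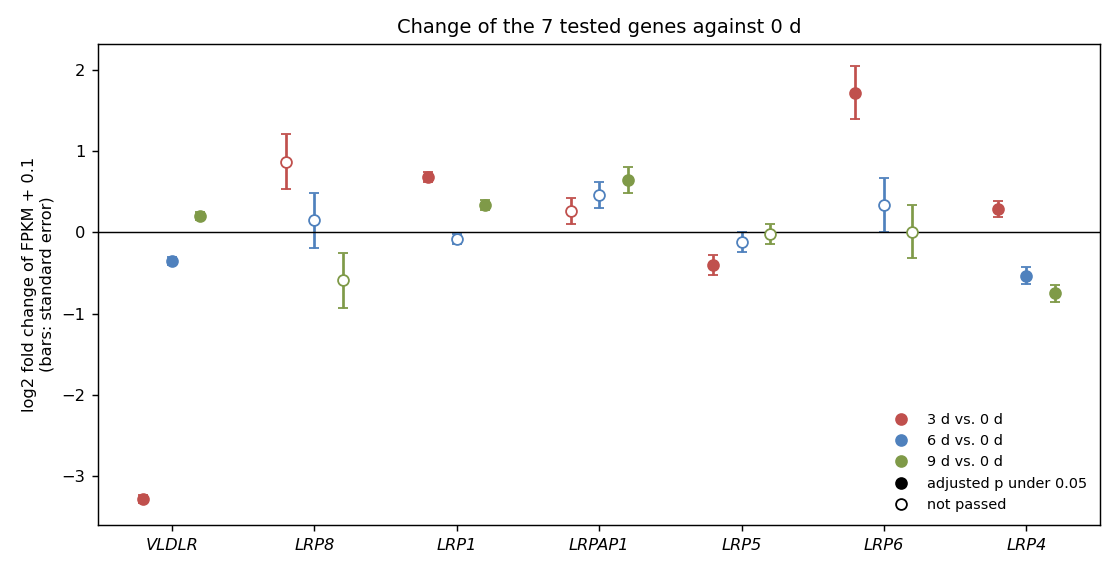
log2 fold changes (y axis) of the 7 tested genes against 0 d at 3, 6 and 9 d, with the limma standard error as bars, filled where the adjusted p was under 0.05. VLDLR at 3 d lies at -3.28, and LRP6 at 3 d lies at 1.72.

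VLDLR, the receptor of very-low-density lipoproteins, had the largest change of the family. Its values were 284, 277 and 269 FPKM at 0 d, 29.3, 27.7 and 28.2 FPKM at 3 d, 216, 212 and 223 FPKM at 6 d and 312, 309 and 328 FPKM at 9 d. The libraries of every day were separated from those of every other day, in the order 9 d, 0 d, 6 d and 3 d. At 3 d the mean was 9.74-fold lower than at 0 d (log2 fold change -3.28, SE 0.05, limma adjusted p = 3.4e-11), which made VLDLR number 225 among the 15401 rows counted from the most decreased. It then rose 7.65-fold to 6 d (2.93, SE 0.05, limma adjusted p = 1.01e-10) and by a further 0.54 to 9 d (SE 0.05, limma adjusted p = 3.1e-05). Against 0 d it ended lower by a small margin at 6 d (-0.35, limma adjusted p = 0.000238) and higher at 9 d (0.20, limma adjusted p = 0.00817). Across 9 d vs. 3 d the difference was 3.47 (SE 0.05, limma adjusted p = 2.26e-11), number 127 among all rows counted from the most increased. With rescaled FPKM these 2 differences from 0 d were -0.18 (limma adjusted p = 0.0136) and 0.40 (limma adjusted p = 0.0001). The summed smooth muscle markers were also lowest at 3 d, a sum that mostly follows ACTA2, and of 5 tested 3 fell and 1 rose on that day. The summed skeletal muscle markers had their lowest mean at 3 d as well (269, 297 and 292 FPKM). This sum does not speak for each gene of the list. Of 7 tested, 2 were higher and 5 lower at 6 d vs. 3 d, and 2 were higher and 4 lower at 9 d vs. 3 d. The part of either list in the dip was not tested.

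Among the members other than LRP1, VLDLR made up most of the summed FPKM on the days when it was high. Its share of these 7 genes was 93.1%, 91.0% and 91.6% in the 0 d libraries, and at 3 d it was 38.6%, 38.3% and 42.2%. By 6 d it stood at 88.3%, 89.0% and 89.8% again, and by 9 d at 93.4%, 92.9% and 92.2%. Their sum itself was 293 to 305 FPKM at 0 d and 66.7 to 75.8 FPKM at 3 d. In the ranking of all rows within a library, VLDLR stood between places 662 and 694 at 0 d and between places 3415 and 3559 at 3 d.

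LRP8, also known as apolipoprotein E receptor 2, is the closest relative of VLDLR and shares its ligand reelin. It varied more between replicates. Its values were 4.16, 5.15 and 6.21 FPKM at 0 d, 12.8, 10.3 and 6.30 FPKM at 3 d, 6.38, 5.72 and 5.02 FPKM at 6 d and 4.67, 1.96 and 4.13 FPKM at 9 d. Replicate 3 of 3 d was close to the highest 0 d library, and replicate 2 of 9 d was the lowest of all 12. The order was 3 d, 6 d, 0 d and 9 d, and no neighbours in it were separated. At 3 d vs. 0 d the log2 fold change was 0.87 (SE 0.34, limma adjusted p = 0.0527) and did not pass, whereas without 3 d replicate 3 it was 1.16 and passed (limma adjusted p = 0.0182). It also passed with rescaled FPKM (0.95, limma adjusted p = 0.0332) and with a pseudocount of 1 (0.77, limma adjusted p = 0.0401). At 6 d vs. 3 d it was -0.72 (SE 0.34, limma adjusted p = 0.104), and without 3 d replicate 3 it was -1.01 (limma adjusted p = 0.0358). The difference that passed with all libraries was 9 d vs. 3 d, a decrease of 2.74-fold (-1.46, SE 0.34, limma adjusted p = 0.0047). VLDLR exceeded LRP8 by 43.3- to 68.2-fold in the 0 d libraries and by 2.28- to 4.47-fold in the 3 d libraries.

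**Figure D3:**
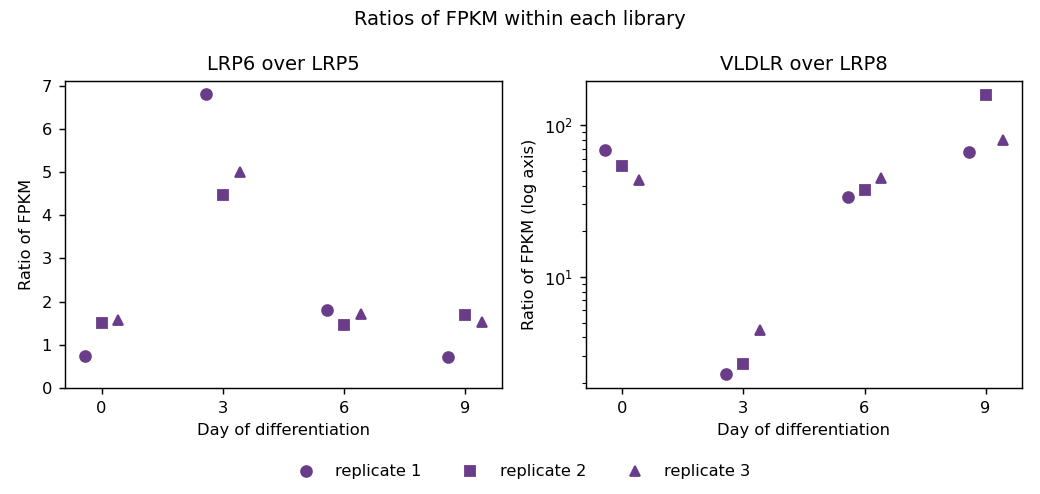
Ratios of FPKM within each library (y axis, log scale in the right panel) by day (x axis) for LRP6 over LRP5 and VLDLR over LRP8, with 1 point per library and a symbol per replicate number. LRP6 over LRP5 is highest at 3 d, and VLDLR over LRP8 is lowest on that day, at 2.28 to 4.47.

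LRP1, the scavenger receptor for lipoprotein remnants, proteases and their inhibitors, was at 41557, 44152 and 41106 FPKM at 0 d, 65487, 70877 and 67233 FPKM at 3 d, 41942, 40439 and 37615 FPKM at 6 d and 57865, 51371 and 51355 FPKM at 9 d. These values put it behind only COL3A1 and a merged row of ACTG1 and MIR3533 by mean FPKM over all libraries, with 2.87% to 5.58% of the summed FPKM of a library. The row's length was not used here. A row quantified over more than 14.1 kb could not reach the highest of these values even if all mapped fragments fell in it, and LRP1 is known for a very long mRNA. The highest value of the row therefore cannot be the level of a full-length mRNA longer than 14.1 kb. The level of LRP1 beside other genes, including its lead among the members, is given as deposited. What part of the transcript the row covers was not tested.

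The comparison of days within this row does not need its length, if the same length was used for every library. Whether all fragments of the row came from LRP1 mRNA was not tested, so the changes are those of the row as deposited. The order was 3 d, 9 d, 0 d and 6 d, and the libraries of 0 d and 6 d overlapped (-0.08, SE 0.06, limma adjusted p = 0.356). LRP1 rose 1.61-fold at 3 d vs. 0 d (0.68, SE 0.06, limma adjusted p = 6.05e-06), fell to 6 d (-0.76, SE 0.06, limma adjusted p = 3.62e-06) and rose again to 9 d (0.42, SE 0.06, limma adjusted p = 0.000932). All 3 libraries of 9 d lay above all 3 of 0 d (0.34, SE 0.06, limma adjusted p = 0.00164), and with rescaled FPKM the difference was 0.55 (limma adjusted p = 6.16e-05). Its highest day was thus the lowest day of VLDLR.

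LRPAP1 encodes the receptor-associated protein, a chaperone of the endoplasmic reticulum that keeps newly made receptors of the family from binding ligands too early. It had values of 5.36, 6.07 and 3.75 FPKM at 0 d, 5.51, 6.83 and 5.59 FPKM at 3 d, 7.43, 6.45 and 6.72 FPKM at 6 d and 7.48, 8.11 and 7.79 FPKM at 9 d. Replicate 3 of 0 d was the lowest of the 12. The 9 d libraries lay above all others, and the neighbours 6 d and 3 d, and 3 d and 0 d, overlapped. Against 0 d it rose at 9 d by 0.64 (SE 0.16, limma adjusted p = 0.0108). The differences at 3 d (0.26, SE 0.16, limma adjusted p = 0.211) and at 6 d (0.46, SE 0.16, limma adjusted p = 0.0503) did not pass, and the one at 6 d passed without 0 d replicate 2 (0.60, limma adjusted p = 0.0176) and with rescaled FPKM (0.63, limma adjusted p = 0.0103). Without 0 d replicate 3, the low library, they were 0.06 at 3 d (limma adjusted p = 0.71) and 0.26 at 6 d (limma adjusted p = 0.124). Against 3 d, the 9 d difference was 0.38 (limma adjusted p = 0.0709), or 0.48 without 3 d replicate 2 (limma adjusted p = 0.0477). It also passed with rescaled FPKM (0.51, limma adjusted p = 0.0186) and in a fit of only the 6 libraries compared (limma adjusted p = 0.0321).

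The ligands known for LRP1, VLDLR and LRP8 moved in both directions. Of 18 found, 15 could be tested, and 6 rose and 6 fell at 3 d, 6 rose and 6 fell at 6 d, and 8 rose and 3 fell at 9 d. Their median log2 fold changes were 0.59, 0.14 and 0.67, beside -0.06, -0.15 and -0.19 over all rows. With rescaled FPKM the medians of the ligands were 0.66, 0.28 and 0.80, beside 0.01, 0.01 and 0.00 over all rows. A2M, the protease inhibitor alpha-2-macroglobulin, rose on all 3 days (3.58, 3.95 and 3.99) from 0.543 FPKM. At 3 d, MMP13 averaged 0.55 FPKM, while it was listed at 0 in the 0 d libraries. CTGF, a matricellular protein, fell from 2436 to 56.4 FPKM at 3 d (-5.43, SE 0.06, limma adjusted p = 5.95e-12) and was 0.35 lower at 9 d, where it did not pass with rescaled FPKM (-0.14, limma adjusted p = 0.161). PLAU, the urokinase cleared through LRP1 and VLDLR, fell by 2.67 at 3 d (SE 0.16, limma adjusted p = 3.26e-07). PLAT, the tissue plasminogen activator, fell by 1.60 at 6 d and by 2.35 at 9 d, PSAP fell by 0.85 at 6 d, and the complement component C3 rose by 2.01 at 9 d. APOE, the lipoprotein ligand of all 3 receptors, averaged 1.85 FPKM at 0 d and 1.97 FPKM at 9 d and passed in none of the 3 comparisons. With rescaled FPKM, the ligands that fell numbered 3 at 6 d and 1 at 9 d.

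Adaptors bind the cytoplasmic tails of the receptors, and chaperones and degraders set how much receptor reaches and leaves the surface. Of 17 such genes tested, 4 rose and 9 fell at 3 d, 2 rose and 8 fell at 6 d, and 3 rose and 7 fell at 9 d. Their medians were -0.26, -0.26 and -0.30, or -0.18, -0.10 and -0.09 with rescaled FPKM. Over all rows, 21.7%, 10.0% and 9.69% rose and 30.5%, 24.8% and 27.2% fell on the 3 days. The medians of all rows were -0.06, -0.15 and -0.19, or 0.01, 0.01 and 0.00 with rescaled FPKM. These values for all rows also stand beside the lists that follow. MYLIP, a ubiquitin ligase known to degrade VLDLR and LRP8, averaged 10.6 FPKM at 0 d and 34.0 FPKM at 3 d and rose by 1.71 (SE 0.28, limma adjusted p = 0.000539). On the same day MESD, the chaperone of LRP5 and LRP6, rose by 1.00 (SE 0.05, limma adjusted p = 4.65e-08), and it was higher than at 0 d by 0.48 at 6 d. DAB2, an endocytic adaptor, fell by 1.89 at 3 d, 0.62 at 6 d and 1.55 at 9 d, and the reelin adaptor DAB1 fell by 1.94, 2.43 and 2.06. SHC1 was lower than at 0 d by 0.72 at 3 d and by 0.19 at 6 d, and higher by 0.39 at 9 d. The 8 genes that fell at 6 d became 5 without 0 d replicate 3, 5 without 6 d replicate 1 and 2 with rescaled FPKM, and the 7 that fell at 9 d became 3 with rescaled FPKM.

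Sheddases and secretases cut receptors of the family at the cell surface and within the membrane. Of 13 genes tested, 4 rose and 2 fell at 3 d, and 2 rose and 5 fell at 6 d. At 9 d, 2 rose and 4 fell. Their medians on the 3 days were 0.05, -0.26 and -0.17 (0.13, -0.09 and 0.04 with rescaled FPKM). BACE2 rose by 1.06, 1.59 and 1.41 and ADAM9 by 0.90, 0.86 and 0.60 on the 3 days. NCSTN, a subunit of gamma-secretase, fell by 0.63 at 3 d and 0.53 at 6 d, and its partner PSENEN fell by 0.50 at 3 d. MMP14, which is known to shed LRP1, fell by 1.34 at 6 d and by 0.61 at 9 d, and PSEN2 fell by 0.69 at 9 d. Without 9 d replicate 2 the genes that fell at 9 d numbered 2, and with rescaled FPKM 4 rose and 2 fell at 6 d and 2 fell at 9 d.

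LRP5 and LRP6, the Wnt co-receptors, changed in opposite directions at 3 d. LRP6 was at 3.88, 7.97 and 7.32 FPKM at 0 d, 22.0, 19.4 and 19.8 FPKM at 3 d, 8.40, 7.40 and 7.47 FPKM at 6 d and 3.57, 7.62 and 8.51 FPKM at 9 d. Replicate 1 was low at 0 d and at 9 d, and the 3 d libraries lay above all others. LRP6 rose 3.19-fold at 3 d vs. 0 d (1.72, SE 0.33, limma adjusted p = 0.0014). It fell from 3 d to 6 d (-1.38, SE 0.33, limma adjusted p = 0.00586), and the libraries of 6 d, 9 d and 0 d overlapped. Its difference at 9 d vs. 0 d was 0.01 (SE 0.33, limma adjusted p = 0.984).

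LRP5 was at 5.27, 5.33 and 4.64 FPKM at 0 d, 3.23, 4.33 and 3.96 FPKM at 3 d, 4.64, 5.02 and 4.34 FPKM at 6 d and 4.99, 4.52 and 5.58 FPKM at 9 d. The 3 d libraries were the lowest, and those of 0 d, 9 d and 6 d overlapped. LRP5 fell at 3 d vs. 0 d (-0.40, SE 0.12, limma adjusted p = 0.0199), and this call was lost without 0 d replicate 1 (-0.37, limma adjusted p = 0.061), without 0 d replicate 2 (-0.37, limma adjusted p = 0.0616) and without 3 d replicate 1 (-0.29, limma adjusted p = 0.0688). The return at 6 d vs. 3 d was 0.28 (SE 0.12, limma adjusted p = 0.0848), or 0.37 without 3 d replicate 2 (limma adjusted p = 0.042) and with rescaled FPKM (limma adjusted p = 0.0275). At 9 d vs. 3 d it was 0.39 (SE 0.12, limma adjusted p = 0.0251), which did not pass without 3 d replicate 1 (0.27), 9 d replicate 1 (0.39) or 9 d replicate 3 (0.31). In a fit of only the 6 libraries compared, LRP5 did not pass at 3 d vs. 0 d (limma adjusted p = 0.0555) or at 9 d vs. 3 d (limma adjusted p = 0.0729). The ratio of LRP6 to LRP5 was 0.736, 1.50 and 1.58 at 0 d and 6.80, 4.48 and 5.01 at 3 d. At 6 d it was 1.81, 1.47 and 1.72, and at 9 d it was 0.715, 1.69 and 1.53.

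Frizzled receptors bind Wnt ligands together with LRP5 and LRP6, and R-spondins act through LGR receptors to keep Frizzled proteins at the surface. Of 12 Frizzled receptors, R-spondins and their LGR receptors tested, 1 rose and 6 fell at 3 d, 1 rose and 4 fell at 6 d, and 1 rose and 6 fell at 9 d, with medians of -0.72, -0.40 and -0.68 (-0.64, -0.24 and -0.47 with rescaled FPKM). Over all rows the percentages that rose on the 3 days were 21.7%, 10.0% and 9.69%, and those that fell were 30.5%, 24.8% and 27.2%. FZD1 was the gene that rose on each day (1.76, 1.32 and 1.31, from 21.8 FPKM). FZD6 fell by 3.13 at 3 d (SE 0.13, limma adjusted p = 1.73e-08), and RSPO2 fell from 0.433 to 0.0333 FPKM (SE 0.15, limma adjusted p = 1.57e-06). FZD2 fell by 2.50 at 6 d and by 1.90 at 9 d, and FZD9 fell by 1.48 and 1.61 on those days. Genes that rose numbered 2 at 3 d without 0 d replicate 1, without 3 d replicate 2, without 3 d replicate 3, with a replicate block or with rescaled FPKM. At 6 d they numbered 2 without 6 d replicate 2, with rescaled FPKM, a pseudocount of 1 or a replicate block, without a variance trend, or with p-values adjusted over all 6 comparisons.

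Secreted and membrane-bound Wnt antagonists act on LRP4, LRP5 and LRP6 or on their ligands. Of 11 tested, 6 rose and 5 fell at 3 d, 4 rose and 4 fell at 6 d, and 5 rose and 4 fell at 9 d, with medians of 0.92, 0.37 and 0.56. DKK1, which binds LRP5 and LRP6 directly and blocks them, had means of 10.9 FPKM at 3 d, 1.91 FPKM at 6 d and 0.220 FPKM at 9 d, and before induction it was listed at 0. SFRP5, which binds Wnt ligands, rose by 5.16 at 3 d, 5.32 at 6 d and 2.01 at 9 d. SFRP4 rose by 2.64 at 9 d (SE 0.06, limma adjusted p = 4.41e-09) and averaged 604 FPKM at 0 d, 7003 FPKM at 3 d and 3772 FPKM at 9 d. DKK3 fell by 2.37 and DKK2 by 2.27 at 3 d, and DKK2 was higher than at 0 d by 0.56 at 9 d (limma adjusted p = 0.0412). NOTUM, an enzyme that inactivates Wnt ligands, fell by 1.29, 2.11 and 3.24 on the 3 days. SFRP1 rose by 0.92 at 3 d, fell by 1.79 at 6 d and rose by 1.74 at 9 d, each against 0 d. KREMEN1, the partner of DKK proteins in removing LRP6 from the surface, fell by 0.95, 1.19 and 1.33 on the 3 days. LRP6 and DKK1 thus both had their highest mean at 3 d.

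Of the 11 genes listed as readouts of beta-catenin, the effector of Wnt signalling, only 5 could be tested, and AXIN2, LEF1, NKD1, SP5, RNF43 and LGR5 had means under 0.1 FPKM. At 3 d, 2 rose and 3 fell, at 6 d 1 rose and 3 fell, and at 9 d 1 rose and 2 fell, with medians of -0.33, -0.70 and -0.07 (0.13 at 9 d with rescaled FPKM, where 1 fell). CCND1, a cyclin with many other inputs, fell by 4.35 at 3 d (SE 0.07, limma adjusted p = 7.72e-11) and by 0.76 at 6 d, and it rose by 1.16 at 9 d. MYC rose by 1.56 and TCF7 by 1.38 at 3 d, and NKD2 fell by 1.32, 0.89 and 0.88 on the 3 days. ZNRF3 fell by 0.33 at 3 d, 0.70 at 6 d and 0.42 at 9 d (at 9 d -0.22 with rescaled FPKM, limma adjusted p = 0.138). MYC was higher at 6 d by 0.94 (SE 0.29, limma adjusted p = 0.03), and it did not pass without 0 d replicate 1 (0.92), 0 d replicate 3 (0.80), 6 d replicate 1 (0.76) or 6 d replicate 3 (0.94), which left 0 that rose.

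LRP4 is the receptor of agrin at the neuromuscular junction and binds the Wnt antagonists sclerostin and DKK1. Its values were 2.43, 2.65 and 2.63 FPKM at 0 d, 3.04, 3.64 and 2.85 FPKM at 3 d, 1.74, 1.72 and 1.80 FPKM at 6 d and 1.48, 1.39 and 1.58 FPKM at 9 d. The days did not overlap, in the order 3 d, 0 d, 6 d and 9 d. The first step was small (0.29, SE 0.10, limma adjusted p = 0.0344) and did not pass without 0 d replicate 1 (0.25), 0 d replicate 2 (0.31), 0 d replicate 3 (0.31) or 3 d replicate 2 (0.19). LRP4 then fell from 3 d to 6 d (-0.81, SE 0.10, limma adjusted p = 8.54e-05), and the further difference to 9 d did not pass (-0.23, SE 0.10, limma adjusted p = 0.149). Against 0 d it was lower by 0.53 at 6 d (limma adjusted p = 0.00246) and by 0.75 at 9 d (limma adjusted p = 0.000263). Compared with 3 d, LRP4 was lower at 9 d by 1.04 (SE 0.10, limma adjusted p = 1.38e-05), close to the limit for a large change, and by 0.94 without 3 d replicate 2.

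The other genes of the agrin pathway, which are best known from muscle, numbered 5 tested. At 3 d, 0 rose and 2 fell, at 6 d 1 rose and 3 fell, and at 9 d 0 rose and 3 fell. By unadjusted limma p, 1 was higher at 3 d and 1 at 9 d, and without 3 d replicate 1 the count that rose at 3 d was 1. With rescaled FPKM or with a pseudocount of 1, 1 rose at 3 d and 1 at 9 d, and without a variance trend 1 rose at 9 d. With a filter of at least 1 FPKM, which leaves out some of these genes, 1 fell at 3 d, and 0 rose and 1 fell at 6 d. Their medians were -0.30, -0.75 and -1.16. RAPSN, the scaffold of acetylcholine receptors, fell by 2.20, 1.97 and 2.45 on the 3 days. DOK7 fell by 0.87 at 3 d, 0.96 at 6 d and 1.16 at 9 d, and COLQ rose by 0.71 at 6 d. MUSK, the kinase that LRP4 activates, averaged 12.7, 26.7, 7.41 and 4.62 FPKM on the 4 days and fell by 1.43 at 9 d (SE 0.36, limma adjusted p = 0.0116). The summed skeletal muscle markers were highest at 0 d, as were RAPSN and DOK7, while MUSK was highest at 3 d, COLQ at 6 d and AGRN (agrin) at 9 d. The part of the muscle markers in these decreases was not tested.

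SORL1, a sorting receptor that combines LDL receptor repeats with a VPS10 domain, was listed at 0.02, 0.02 and 0.04 FPKM at 0 d and at 0, 0.02 and 0.01 FPKM at 3 d. The later values were 0, 0.01 and 0 FPKM at 6 d and 0.01, 0.01 and 0.02 FPKM at 9 d. It was below the limit of the test on each day and is given without a comparison. Of its VPS10 relatives, SORT1 (sortilin) and SORCS2 could be tested, and SORCS1 and SORCS3 were below the limit. SORT1 averaged 28.4, 3.76, 6.25 and 15.1 FPKM on the 4 days and fell by 2.85 at 3 d (SE 0.23, limma adjusted p = 3.28e-06), 2.13 at 6 d and 0.92 at 9 d. In a fit of only the 6 libraries compared, SORT1 at 9 d did not pass (limma adjusted p = 0.0662). SORCS2, with a mean of 0.19 FPKM at 0 d, fell by 0.89 at 3 d and by 0.74 at 9 d. The median of the pair was -1.87 at 3 d, -1.19 at 6 d and -0.83 at 9 d, and none of them rose, also at unadjusted limma p.

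Among other relatives of the family, LRP1B and LRP2 were below the limit, and 6 genes were tested. At 3 d, 1 rose and 3 fell, at 6 d 1 rose and 2 fell, and at 9 d 0 rose (0 at unadjusted limma p, 2 with rescaled FPKM) and 3 fell, with medians of -0.32, -0.08 (0.08 with rescaled FPKM) and -0.23 (-0.02). LRP12 rose by 0.45 and LRP3 fell by 0.72 at 3 d. LRP11 fell by 0.51 at 6 d and by 1.24 at 9 d (SE 0.14, limma adjusted p = 0.000102), and LRP10 by 0.52 and 0.55. LRP10 at 6 d did not pass without 0 d replicate 1 (-0.50), 0 d replicate 3 (-0.46) or 6 d replicate 1 (-0.40). LRP11 at 6 d did not pass without 0 d replicate 1 (-0.51), 0 d replicate 2 (-0.50), 6 d replicate 1 (-0.43) or 6 d replicate 2 (-0.50), so that 0 fell without 0 d replicate 1 or 6 d replicate 1 and 1 fell without 0 d replicate 2, 0 d replicate 3 or 6 d replicate 2. With rescaled FPKM 0 fell at 6 d. LRP10 at 9 d did not pass without 0 d replicate 1 (-0.52), 0 d replicate 3 (-0.49), 9 d replicate 1 (-0.49) or 9 d replicate 2 (-0.45), nor with rescaled FPKM (-0.34, limma adjusted p = 0.135).

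Reelin signals through VLDLR and LRP8 by phosphorylation of DAB1. RELN itself averaged 0.0133 FPKM at 0 d, and DAB1 averaged 1.69 FPKM at 0 d and 0.363 FPKM at 3 d. Of 5 pathway genes tested, 2 rose and 2 fell at 3 d, and 0 rose and 3 fell at 6 d. At 9 d, 0 rose and 2 fell. Their medians on the 3 days were 0.07, -0.30 and -0.15 (0.15, -0.13 and 0.06 with rescaled FPKM). By unadjusted limma p, 0 were higher at 6 d and 1 at 9 d, and with rescaled FPKM 1 rose on each of these days. FYN, the kinase that phosphorylates DAB1, rose by 1.21 at 3 d, and PAFAH1B1 fell by 0.62, 0.41 and 0.53. CRKL was higher by 0.23 at 3 d (limma adjusted p = 0.0265), and it did not pass without 0 d replicate 1 (0.24), 0 d replicate 2 (0.18), 3 d replicate 2 (0.17) or 3 d replicate 3 (0.22), which left 1 that rose. At 6 d CRKL was lower by 0.30 (limma adjusted p = 0.0114).

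Genes switched on by SREBP2 when sterols run low were listed for comparison with the receptors. Of 19 genes tested, 7 rose and 0 fell at 3 d, 7 rose and 1 fell at 6 d, and 0 rose and 8 fell at 9 d, with medians of 0.23, 0.36 and -0.32 (-0.12 at 9 d with rescaled FPKM). By unadjusted limma p, 0 were lower at 3 d and 1 was higher at 9 d. PMVK rose by 2.45 at 3 d (SE 0.68, limma adjusted p = 0.0122), FDFT1 rose by 0.69 at 3 d and 0.77 at 6 d and was lower than at 0 d by 0.32 at 9 d, INSIG1 rose by 0.51 at 6 d, EBP fell by 0.40 at 6 d (-0.23 with rescaled FPKM, limma adjusted p = 0.0997, which left 0 that fell) and by 0.77 at 9 d, and NSDHL fell by 1.05 at 9 d (SE 0.36, limma adjusted p = 0.0427). NSDHL did not pass without 0 d replicate 1 (-1.04), 0 d replicate 2 (-0.99) or 0 d replicate 3 (-1.13). Of the genes that fell at 9 d, 5 were left without a filter on low values. With rescaled FPKM 1 fell and 2 rose, so that the counts of this list at 9 d depend on the scaling. The median of the list was below 0 with either scaling (-0.32 and -0.12), beside -0.19 and 0.00 over all rows. Leaving out 3 d replicate 2 or 3 d replicate 3 gave 1 that fell at 3 d, and leaving out 0 d replicate 3 gave 2 that fell at 6 d and 1 that rose at 9 d. In a fit of only the 6 libraries compared, 4 rose at 3 d, and PMVK did not pass (limma adjusted p = 0.0665).

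**Figure D4:**
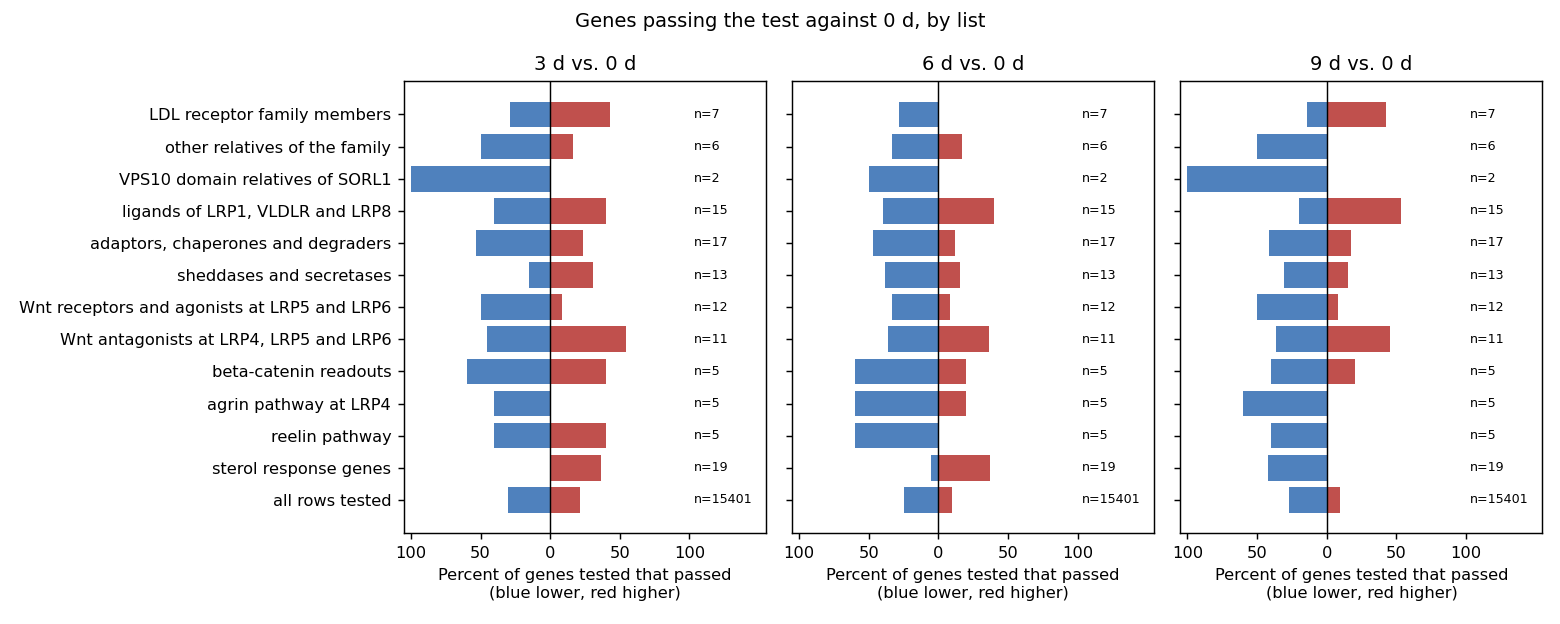
Percent of the tested genes of each list that passed as higher (red, to the right) or lower (blue, to the left) at 3, 6 and 9 d against 0 d, with the number tested at the right and all 15401 rows in the last line. The sterol response genes show 7 of 19 to the right at 3 d and 8 of 19 to the left at 9 d.

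For each member, the rows most like it were sought by the Pearson correlation of log2(FPKM + 0.1) over the 12 libraries among 9650 rows with a gene symbol and a mean of at least 1 FPKM, the other members left out. Since the 12 libraries are 4 days of 3, a high r mostly says that the means of the days follow the same course. The rows nearest to VLDLR were FST (r = 0.999), WISP1 (0.998) and RAB31 (0.998). FST, which encodes the activin antagonist follistatin, averaged 25.1, 0.350, 17.4 and 32.4 FPKM on the 4 days. WISP1 averaged 9.47, 0.150, 7.37 and 13.0 FPKM. RAB31, with 54.0, 20.6, 51.2 and 57.9 FPKM, had the same order of days and a shallower dip.

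**Figure D5:**
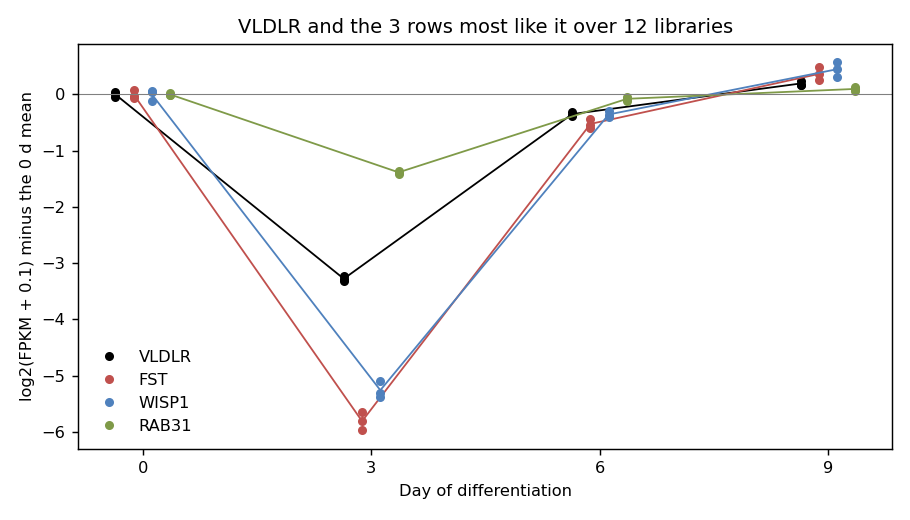
log2(FPKM + 0.1) of VLDLR, FST, WISP1 and RAB31 in each of 12 libraries, minus the 0 d mean of the gene (y axis), by day (x axis), with a line through the means of the days. The 4 genes are lowest at 3 d, where the means are 28.4 FPKM for VLDLR and 0.350 FPKM for FST.

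LRP1 was closest to SNED1 (r = 0.981; 95.1, 530, 99.0 and 242 FPKM on the 4 days) and CNTNAP1 (0.973). LRP4 was closest to EPHB4 (0.979), ID3 (0.979) and PLXNA4 (0.979), of which ID3 averaged 28.6, 43.3, 13.9 and 9.95 FPKM. For LRP6 they were MSANTD2 (0.948), REX1BD (0.930) and CCL25 (0.929), for LRP5 PLEKHG3 (0.918), FLOT2 (0.911) and HMGXB4 (0.897), for LRP8 PCDH12 (0.923), IVD (0.905) and PROSER1 (0.898), and for LRPAP1 FSTL1 (0.888), P4HA1 (0.887) and ATP11B (0.870). The nearest rows of SORL1 were RPS4X (0.946), E4F1 (0.937) and AKT1 (0.931), but with values of 0 to 0.04 FPKM in steps of 0.01 this order carries little. All of these are over 12 libraries.

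Circular RNAs from the same loci were a second readout, counted as back-spliced reads. The libraries held 5358 to 10729 such reads each, over 14070 circRNAs. The members were the host of 21 of them with 39 reads in all, namely 9 of LRP1 (20 reads), 9 of LRP6 (15 reads), 2 of LRP5 (3 reads) and 1 of LRP4 (1 read), and none was listed for VLDLR, LRP8, LRPAP1 or SORL1. The reads of the members by day were 8, 12, 9 and 10. Those of LRP6 were 3, 7, 2 and 3 on the 4 days. The circRNAs of LRP1 were listed on both strands, 3 on the plus and 6 on the minus strand.

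Only 1 of the 21 had at least 5 reads over the 12 libraries and could be tested among 2828 circRNAs. This was circRNA556 of LRP6, an exonic circle of 4 exons on chromosome 5 from 97624873 to 97631464 on the plus strand (assembly ARS-UCD1.2 by the study's methods, while the labels list another build), with 5 reads, each in a different library. By edgeR, 0 circRNAs of the members were called in any comparison with 0 d, where 0.813%, 0.530% and 0.566% of all tested circRNAs were called at 3, 6 and 9 d. The count at an unadjusted p under 0.05 was 0 in each comparison, and DESeq2 also called 0. For circRNA556 at 3 d vs. 0 d the log2 fold change was 0.65 (edgeR, adjusted p = 1). The 39 reads of the members are too few for a comparison of days.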

How the data were processed

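RNA of 12 libraries (4 days, 3 replicates each) was sequenced by the authors, who deposited mRNA values as FPKM, circRNA values as counts of back-spliced reads and, from these, as SRPBM, a signal scaled to the mapped reads that was not used in a test. The submitters' processing notes list Bowtie 0.12.2, HISAT2 2.0 and StringTie 1.3.0, and the study's methods name the bovine assembly ARS-UCD1.2, while the labels list another build. The FPKM table keeps no read depth, and the study's read totals were not used here. The sources differ on how RNA was selected (poly(A) or rRNA depletion).

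Rows with a mean FPKM of at least 0.1 were fitted by limma 3.58.1 (R 4.3.3; log2(FPKM + 0.1), a mean for each day, moderated variance with a trend), with Benjamini-Hochberg adjustment over all rows of a comparison. CircRNAs with at least 5 counts were fitted by edgeR 4.0.16 (quasi-likelihood, TMM), with DESeq2 1.42.0 as an alternative. The functions were tested on simulated data. The study used edgeR for mRNAs as well, which FPKM do not allow. Tables and plots were made in Python 3.11.15 with numpy 2.4.6, pandas 2.3.3 and matplotlib 3.10.9. The lncRNA and miRNA tables were not used here.

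Members were matched by exact name. Of each of 11 pathway lists, up to 2 genes that rose and 2 that fell most against 0 d among those that passed are named, and of the likeness search 3 rows per member, though some of these genes are not given here. CircRNAs with at least 10 counts were to be named, which none of the members' reached, so that circRNA556 was named after its values were seen. The ratios of members, the shares of FPKM, APOE, RELN, list genes below the filter and values of named genes on other days were added to these. Genes whose row pools several names (SRC, SREBF2, SCAP, HMGCS1, MSMO1, PPARG, PLIN1) were not counted, and STARD4 and PAX7 were not analysed here. CTGF and MESD were matched under these names and not under CCN2 and MESDC2. RNF43, ZNRF3, LGR5, RELN and DAB1 stand in 2 lists each. The members and lists were chosen with earlier results of these data known. Alternatives were other pseudocounts, filters, scaling, variance models and adjustments, a replicate block, and each library left out.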

Additional observations from a re-analysis of the deposited data

Results flagged for a closer look

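For 2 of the 7 tested genes, the change against 0 d had opposite signs on different days, with both changes and the direct comparison of the days past the test (limma, adjusted p under 0.05). The same rule was met by 1190 of the 15401 rows tested (7.73%), and the difference from this share was not tested. VLDLR was lower than at 0 d at 3 d and at 6 d and higher at 9 d. The direct difference was 3.47 between 9 d and 3 d (log2, limma adjusted p = 2.26e-11) and 0.54 between 9 d and 6 d (limma adjusted p = 3.1e-05). LRP4 was higher than at 0 d at 3 d and lower at 6 d and 9 d. Its direct difference was -0.81 between 6 d and 3 d (limma adjusted p = 8.54e-05) and -1.04 between 9 d and 3 d (limma adjusted p = 1.38e-05). The rise of LRP4 at 3 d rests on small differences and was lost in several alternatives, among them each of the 3 libraries of 0 d left out.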

How the results depend on the processing

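Of 630 alternative values of the 42 fold changes of the members, 590 kept their direction and their side of the threshold, 15 no longer passed, 15 newly passed and 10 changed sign. None of the changes of sign was in a difference that passed. With FPKM rescaled by their median ratio, LRP1 was at 0.09 and LRP5 at 0.05 at 6 d vs. 0 d, and LRP5 was at 0.19 at 9 d vs. 0 d. With 1 library left out, LRP5 at 9 d vs. 0 d ranged from -0.09 to 0.06, LRP6 at 9 d vs. 0 d from -0.31 to 0.40, and LRP6 at 9 d vs. 6 d from -0.56 to 0.06.

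At 3 d vs. 0 d the number of members that passed was 3 in a fit of only the 6 libraries compared, and it ranged from 3 to 6 with 1 library left out. The cause was not tested. The replicate block gave 4 members at 3 d vs. 0 d, where LRP4 was lost (0.29, limma adjusted p = 0.0566), and 3 at 6 d vs. 0 d, where LRPAP1 was gained (limma adjusted p = 0.0481). It changed no other call of a member, giving 4 at 9 d vs. 0 d, 4 at 6 d vs. 3 d, 2 at 9 d vs. 6 d and 6 at 9 d vs. 3 d, and 0 circRNAs. The labels do not say whether same-numbered libraries share an origin. The correlation of deviations from the day means was over 0.1 in 2 of 18 same-numbered pairs (-0.098 to 0.112). By their mean correlation, 6 of 12 libraries were closest to their own number. With 3 libraries per day, these correlations cannot decide whether same-numbered libraries were paired.

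Rescaling moved the median of all rows from -0.15 to 0.01 at 6 d vs. 0 d and from -0.19 to 0.00 at 9 d vs. 0 d. Rows that passed became 2415 higher and 2524 lower (1541 and 3819 as deposited) at 6 d and 2463 higher and 2333 lower (1493 and 4182) at 9 d. The share of higher rows among those that passed moved from 28.8% to 48.9% at 6 d vs. 0 d and from 26.3% to 51.4% at 9 d vs. 0 d. At 6 d vs. 3 d it moved from 45.2% to 52.4%, at 9 d vs. 6 d from 48.4% to 55.0% and at 9 d vs. 3 d from 43.3% to 53.3%. VLDLR at 9 d vs. 0 d was 0.40 and LRPAP1 at 6 d vs. 0 d 0.63 (limma adjusted p = 0.0103) after rescaling, and LRP4 at 9 d vs. 3 d was -0.92, or -0.75 with a pseudocount of 1. A filter of 20 counts left no circRNA of the members. No counting error was computed for low values such as those of SORL1, and 39 reads limit the circRNAs.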
